A study of Mus musculus with 11 samples.

Results

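NIH3T3, an immortal fibroblast line from mouse embryo, was set against the embryonic stem (ES) cells and the mammary epithelial line NMuMG sequenced beside it, over total RNA of all genes. The comparison rests on the 3 NIH3T3 libraries of 11 in all, taken by their labels, and on no measured value. NIH3T3 cells were of the NIH/Swiss strain and were grown in DMEM with calf serum, 1 culture being parental and 2 carrying a BRE reporter, a BMP response element in front of a reporter gene. For NIH3T3 replicates 2 and 3 the table names give the line alone, without the reporter tag of the ES and NMuMG reporter tables. The samples left for them are the 2 reporter cultures, but the names do not show that either table came from a reporter culture. The ES cells were the E14 line (129/Ola), grown on gelatin with fetal serum and LIF, with 1 parental and 2 reporter replicates, 1 of them the mean of 2 technical runs. NMuMG cells (NAMRU strain) were grown in DMEM with fetal serum and non-essential amino acids, with 2 parental (replicates 1 and 3) and 2 reporter replicates (2 and 4). Line, strain and medium cannot be told apart, and nothing in the labels says that replicates were separately derived, so p-values measure the spread between these cultures only.

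Values are FPKM, fragments scaled to transcript length and library total, so they may be compared between genes. The tables hold no read counts, and depth is known only in relative terms: by the upper bounds of entries at 0, NIH3T3 replicates 2 and 3 stood at 3.81 and 3.80 times the parental ES library and the other libraries at 0.933 to 1.28 times. The table names carry consecutive numbers in 3 series, and no label says what the numbers stand for. NIH3T3 replicate 1 shares a number series with ES replicate 4 and NMuMG replicates 3 and 4, and NIH3T3 replicates 2 and 3 form a series of their own. Between 10351 and 11047 entries reached 1 FPKM in a library.

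Fibroblasts make and remodel the connective tissue matrix. They secrete collagens I, III and V with the enzymes that hydroxylate, trim and cross-link them, they lack the cadherin and keratin system of epithelium, and they keep a positional code of Hox genes. NIH3T3 is used as a standard fibroblast and is known to have lost the Cdkn2a locus. BMP signals run from type I and type II receptors to SMAD proteins, which switch on Id genes.

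The markers of the labelled cell type were high in NIH3T3 and low elsewhere. Col1a2, a chain of collagen I (chromosome 6, 4505697 to 4541543, mm10), was at 782, 1062 and 1808 FPKM in NIH3T3 replicates 1, 2 and 3, and at 0.516 or less in every ES and NMuMG replicate. Bgn, the matrix proteoglycan biglycan (chromosome X, 73483635 to 73495936, mm10), was at 995, 1092 and 1873 FPKM against 0.543 or less. Lox, the lysyl oxidase that cross-links collagen (chromosome 18, 52517238 to 52529708, mm10), was at 628, 233 and 1046 FPKM against 0.218 or less. The surface glycoprotein Thy1 (chromosome 9, 44043384 to 44048579, mm10) was at 447, 318 and 198 FPKM in NIH3T3, 4.28, 2.62 and 1.59 in the 3 ES replicates and 0.242 or less in NMuMG. For all 4 genes the NIH3T3 replicates lay far above every other replicate. The 20 pluripotency genes summed to 21.7 to 34.9 FPKM in NIH3T3, against 5049 to 6515 in ES cells, with Pou5f1 at 0.254, 0.0435 and 0.0610 FPKM. The 41 epithelial genes summed to 28.7 to 37.0 FPKM, against 592 to 708 in ES cells and 5659 to 7974 in NMuMG. Markers of endothelium (10 genes, 1.08 to 1.30 FPKM in sum), blood (9 genes, 2.63 to 4.29) and skeletal muscle (10 genes, 0.170 to 0.971) were near 0, with Kdr, Emcn, Emr1 and Myod1 listed at 0 in all 3 NIH3T3 replicates. Neural markers (8 genes) summed to 1.15 to 5.47 FPKM, adipocyte markers (9 genes) to 7.82 to 19.6, against 23.8 to 35.8 in NMuMG, and bone and cartilage markers (11 genes) to 27.3 to 37.1, against 17.1 to 67.2 in NMuMG and 26.5 to 41.6 in ES cells. In RNA of bulk cultures, fewer cells of a type and less RNA per cell cannot be told apart.

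**Figure D1:**
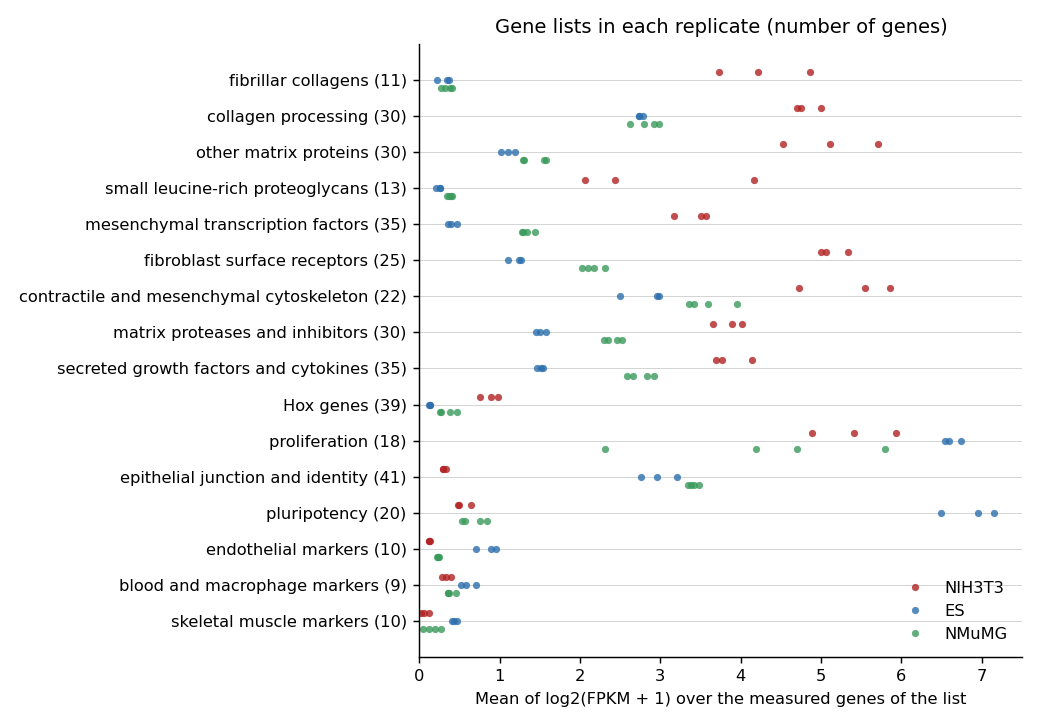
Mean level of each gene list in every replicate, as the mean of log2(FPKM + 1) over all measured genes of the list, 1 point per replicate (3 NIH3T3, 3 ES, 4 NMuMG). The fibrillar collagens lie at 3.73 to 4.86 in NIH3T3 and at 0.40 or less elsewhere, and the epithelial list at 0.29 to 0.33 in NIH3T3 and at 2.75 or more elsewhere.

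Of 12348 genes reaching 1 FPKM in 3 or more of the 10 replicates, 937 (7.59%) were above both other lines and 541 (4.38%) below both. Counts over the members of a list are to be read beside these shares, at which a short list would hold few calls or none. A gene counts as above or below both when it passed a limma adjusted p of 0.05 and a 2-fold change on the log2(FPKM + 1) scale in 3 comparisons: NIH3T3 minus ES, NIH3T3 minus NMuMG, and NIH3T3 minus the mean of both. The last of these, called the contrast here, was passed by 1772 genes higher (14.4%) and 1814 lower (14.7%) in NIH3T3, and its median over all tested genes was -0.09. The 3 comparisons share the NIH3T3 libraries. In 900 of the 937 genes every NIH3T3 replicate exceeded every other replicate, and in 521 of the 541 every one was lower, where over all tested genes such separation was seen in 12.2% upward and 12.7% downward. Many of these genes were close to absent on one side: 354 of the 937 had means under 1 FPKM in both other lines, and 323 of the 541 had an NIH3T3 mean under 1 FPKM. Of the 937, 405 reached the filter through the NIH3T3 replicates alone, with fewer than 3 of the 7 other replicates at 1 FPKM, so these had to be higher in NIH3T3 and counts over the tested members of a list lean upward with them. In 371 genes the NIH3T3 mean was at least 10 times the mean of the higher of the other lines.

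These counts leaned on the libraries in different degrees. With NIH3T3 replicate 1 as the only NIH3T3 library, an alternative added after seeing the data, 894 genes were above both lines and 413 below, 768 and 371 of them among the genes just counted. With the number series as a term they were 829 and 392, and among genes named further on Alpl, Axl, Cdkn1c, Dkk3, Fzd8, Gdf15, Id3, Id4, Klf4, Loxl2, Lum, Mmp15, Ogn, Postn, Slc22a18, Tagln, Tap2, Tfcp2l1 and Vim lost their calls in that fit. Within the number series that holds all 3 lines, with 1 NIH3T3, 1 ES and 2 NMuMG replicates, 409 were above and 65 below. In the fit within the series that holds all 3 lines, the lone samples are assumed to vary like NMuMG. No other line shares the series of NIH3T3 replicates 2 and 3. With the number series as a term the NIH3T3 level therefore comes from replicate 1 alone, and that fit is no separate check on all 3 libraries.

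**Figure D2:**
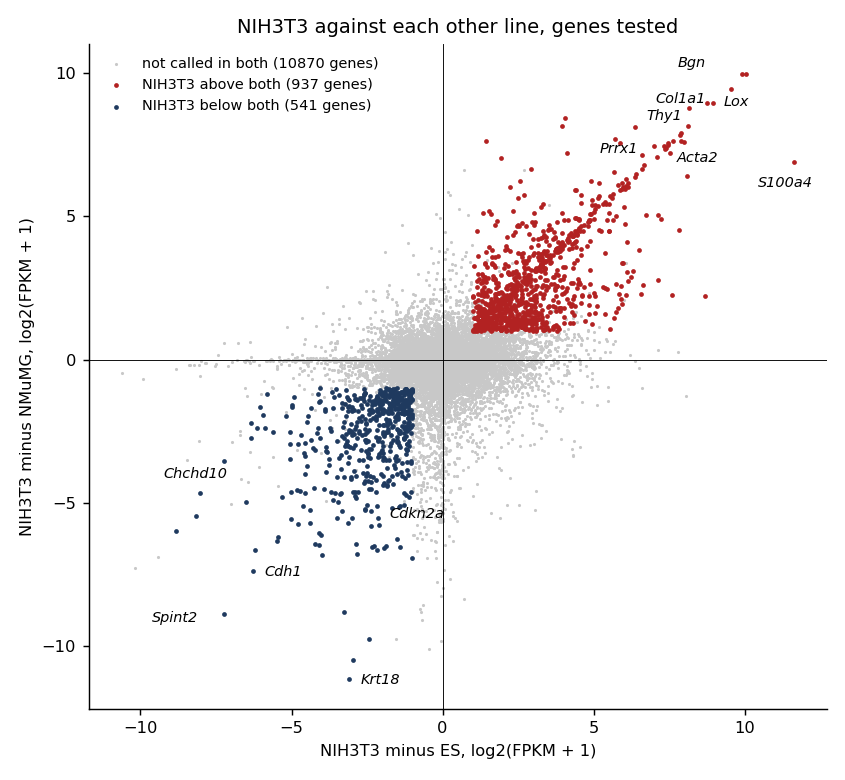
Difference of each tested gene between NIH3T3 and ES cells (x axis) and between NIH3T3 and NMuMG (y axis), in log2(FPKM + 1). Red points are the 937 genes above both lines and dark blue points the 541 below both. Both axes share the NIH3T3 replicates, so the diagonal spread is partly built in.

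Among clean table entries without overlap, the 15 largest contrasts were those of Bgn (9.99, SE 0.21), Col1a2 (9.94, SE 0.26), Col1a1 (9.50), S100a4 (9.27), Lox (8.95), Serpinf1 (8.86), Dlk1 (8.46), Col3a1 (7.90), Il1rl1 (7.84), Efemp1 (7.78), Mgp (7.76), Igfbp6 (7.62), Thbs2 (7.50), Gas1 (7.48) and Nrn1 (7.39). Among them Serpinf1 is an antiangiogenic serpin, Efemp1 a fibulin of elastic matrix, Mgp an inhibitor of calcification, and Igfbp6 a binding protein for IGF2. S100a4, a calcium-binding protein also known as fibroblast-specific protein, was the most abundant of them, at 3045, 4953 and 5920 FPKM against 0, 0 and 1.81 in ES cells and 16.6, 28.2, 70.5 and 52.2 in NMuMG. Il1rl1, the receptor for interleukin 33, was at 438, 322 and 91.9 FPKM and at 0.121 or less in all other replicates. Dlk1, an imprinted Notch-like protein that marks immature stromal cells, was at 196, 373 and 1319 FPKM and at 1.21 or less elsewhere. Gas1, a surface protein that binds hedgehog and was named for its rise in arrested fibroblasts, was at 243, 154 and 532 FPKM and at 0.802 or less elsewhere. That these genes do not overlap between lines is part of the rule that named them.

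Of 11 fibrillar collagen genes, 6 were tested and 5 were above both lines. All 5 reached the filter through the NIH3T3 replicates alone. Col1a1 was at 491, 1248 and 1568 FPKM in the 3 NIH3T3 replicates. Col3a1, the collagen of pliable tissue, was at 63.8, 304 and 779 FPKM, so that replicate 3 held over 10 times the level of replicate 1. Col5a2 and Col5a1, chains of the collagen that nucleates the fibrils, were at 42.6, 86.5 and 189 and at 33.6, 65.7 and 88.7 FPKM. The highest value of any of these genes outside NIH3T3 was 0.997 FPKM. The cartilage collagen Col2a1 stayed at 0.0168 FPKM or less in NIH3T3. The promoter of Col1a2 is printed because 3 fibrillar collagen genes, Col1a1, Col1a2 and Col3a1, are among these 15 contrasts. It spans 250 bases before the RefSeq gene start to 50 after it, plus strand, chr6:4505368-4505667 (GRCm38.p6, which is mm10). This window ends before the start of the Col1a2 entry given above with the markers, so the sources place the gene start at different bases. Capitals mark the CCAAT box, CCAAT or its reverse ATTGG, found at base -109 and at base 1 counted from the RefSeq start.
Col1a2: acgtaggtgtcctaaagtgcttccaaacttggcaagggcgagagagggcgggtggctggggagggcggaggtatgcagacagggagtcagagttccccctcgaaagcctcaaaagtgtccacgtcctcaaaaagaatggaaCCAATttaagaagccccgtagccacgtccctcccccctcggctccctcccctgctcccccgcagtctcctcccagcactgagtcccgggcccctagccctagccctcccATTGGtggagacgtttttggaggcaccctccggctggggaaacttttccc
The CCAAT box was found in at least 1 listed promoter of 43.3% of 676 genes above both lines and of 43.7% of 9121 tested genes with a promoter in the table. The match is a description of these letters only.

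Genes that process collagen were found on both sides. Of 30 genes, 29 were tested, 14 were above both lines, 6 of them tested through NIH3T3 alone, and 2 below. Among the prolyl hydroxylases, P4ha3 was at 12.3, 20.6 and 36.8 FPKM and at 0.0941 or less elsewhere, whereas P4ha1, present in all lines, was at 48.7, 35.8 and 37.5 FPKM in NIH3T3 and 7.57 to 20.6 elsewhere. Leprel2, a prolyl 3-hydroxylase of the older gene names used by the tables, was at 41.3, 37.9 and 67.4 FPKM and at 1.27 or less elsewhere. Pcolce, which speeds the trimming of procollagen, was at 328, 405 and 651 FPKM against 14.5 to 41.7 elsewhere. The lysyl oxidases were on both sides. Lox, Loxl1 (116, 135 and 234 FPKM) and Loxl3 (17.0, 45.0 and 27.8 FPKM) were above both lines with no other replicate over 1.13 FPKM, and Loxl2, which acts on the collagen of basement membrane, was below both at 0.0184, 0.0199 and 0.0220 FPKM against 2.24 to 15.0 elsewhere, a call lost with the number series as a term. Values of 0 for Loxl3 outside NIH3T3 are uncertain, since all had an upper bound above 0. Pcolce2 was listed at 0 in all 3 NIH3T3 replicates and was at 13.6, 12.9 and 21.0 FPKM in ES cells. Serpinh1, the collagen chaperone, was at 285, 426 and 437 FPKM and 61.1, 0.339, 56.4 and 0.396 in NMuMG replicates 1 to 4, where both reporter replicates were near 0. It was higher than ES cells (3.52) but with that split was not called against both. The general enzymes P4hb and Ppib, shared by all secretory cells, were not called either, at contrasts of 0.55 and 0.54.

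Around the fibrils, 20 of 26 tested genes of 30 other matrix genes were above both lines and none below, 13 of the 20 tested through NIH3T3 alone. Col6a1, Col6a2 and Col6a3, the beaded-filament collagens, had contrasts of 7.24, 7.37 and 6.14. Efemp1, at 181, 231 and 539 FPKM, and Thbs2, at 125, 152 and 371 FPKM, a matricellular protein, led the list beside them. Some matrix genes were as high in NMuMG. Fbln2, a fibulin, was at 288, 394 and 290.4 FPKM and at 339, 262, 245 and 236 in NMuMG, and Ecm1 was at 70.2, 100.1 and 87.5 and 82.2, 83.3, 35.4 and 98.4, and neither was called against both. Of 13 small leucine-rich proteoglycans, which coat collagen fibrils, 6 were tested and 5 were above both lines, all 5 through the NIH3T3 replicates alone. Dcn, decorin, was at 66.9, 57.3 and 660.0 FPKM and at 0.0767 or less elsewhere. Lum, Ogn and Prelp were also above both. Lum was at 10.9, 1.06 and 27.8 FPKM, lowest in replicate 2 and highest in replicate 3. Asporin (Aspn) was too seldom over 1 FPKM to be tested and stood at 0.556, 2.58 and 179 FPKM, so replicate 3 alone held it at a high level.

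**Figure D3:**
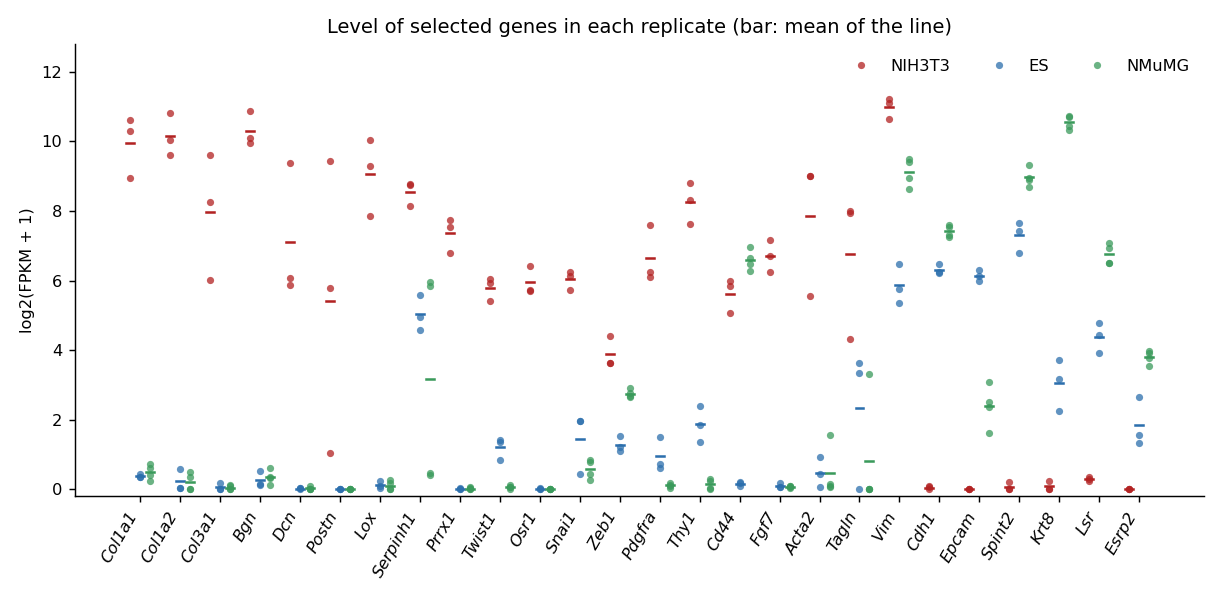
Level of 26 genes in each replicate as log2(FPKM + 1), 1 point per replicate and a bar at the mean of the line (3 NIH3T3, 3 ES, 4 NMuMG). Col1a1, Col1a2, Col3a1, Bgn, Dcn, Lox, Prrx1, Twist1, Osr1 and Thy1 are high in NIH3T3 alone of the 3 lines. Serpinh1 is also present in NMuMG replicates 1 and 3, and Postn is low in NIH3T3 replicate 1. Cd44 is shared with NMuMG, and the epithelial genes at the right are near 0 in NIH3T3.

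Of 35 mesenchymal transcription factors, 28 were tested and 22 were above both lines, none below, 12 of the 22 tested through NIH3T3 alone. Prrx1, a homeobox factor of limb and head mesenchyme (chromosome 1, 163245119 to 163313650, mm10), was at 186, 110.4 and 213 FPKM and at 0.0433 or less in all other replicates, a contrast of 7.34 (SE 0.19, adjusted p = 2.33e-09). Its paralogue Prrx2 was at 95.2, 108 and 154 FPKM. Osr1, a zinc finger factor of intermediate mesoderm and connective tissue, was at 51.7, 51.2 and 85.3 FPKM against 0.0358 or less. Twist2 and Twist1, basic helix-loop-helix factors of mesenchyme, had contrasts of 5.17 and 5.16, and Nr2f1, at 0 with an upper bound above 0 in an ES technical run, one of 4.85. The factors known to switch off epithelial genes were also above both lines, in the order Snai1 (52.2, 69.6 and 75.5 FPKM, elsewhere 2.91 or less), Snai2 (20.6, 8.41 and 24.3, elsewhere 3.17 or less), Zeb1 (20.1, 11.4 and 11.5, elsewhere 6.55 or less) and Zeb2 (6.81, 4.65 and 7.06, elsewhere 1.61 or less). Zeb1 and Zeb2 had contrasts of 1.87 and 2.16, and Zeb1 lost its call without NIH3T3 replicate 1 (contrast 1.62). The factors Runx2 (10.7, 9.73 and 11.7 FPKM, NMuMG 8.71, 8.66, 8.73 and 7.02) and Foxf2 (57.7, 25.7 and 19.9, NMuMG 15.8, 12.7, 15.7 and 16.9) were expressed in NIH3T3 and NMuMG and not called against both. Scx, a tendon factor, was at 0.231, 0.472 and 0.259 FPKM in NIH3T3 and at 63.5, 81.5, 45.2 and 77.1 in NMuMG. The fibroblast factors Tcf21 and Pitx1 were listed at 0 in all 3 NIH3T3 replicates.

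Hox genes above both lines came from 3 of the 4 clusters. Of 39 Hox genes, 17 were tested, 12 were above both lines and none below, all 12 tested through NIH3T3 alone. They were Hoxa2, Hoxa3, Hoxa5, Hoxa6 and Hoxa7, Hoxc4, Hoxc5 and Hoxc6, and Hoxd3, Hoxd4, Hoxd8 and Hoxd9. Hoxd8 was the highest, at 25.3, 21.7 and 18.6 FPKM and at 0.133 or less elsewhere, followed by Hoxa5 at 12.2, 9.56 and 18.6 FPKM, against 1.53, 0.216, 0.804 and 0.160 in NMuMG. Hoxd9 was at 9.32, 6.42 and 7.90 FPKM and at 0.160 or less elsewhere. At paralogues 9 to 13 other than Hoxd9 the levels were low in NIH3T3: Hoxd10 was at 0.428, 0.157 and 0.182 FPKM, Hoxa9 at 0, 0 and 0.00965, and Hoxa13, Hoxc13, Hoxd11 and Hoxd12 were listed at 0. The Hoxb cluster was near 0 in NIH3T3. Its highest value was 0.331 FPKM, whereas Hoxb6 reached 2.40, 2.65, 1.90 and 3.12 in NMuMG replicates 1 to 4.

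**Figure D4:**
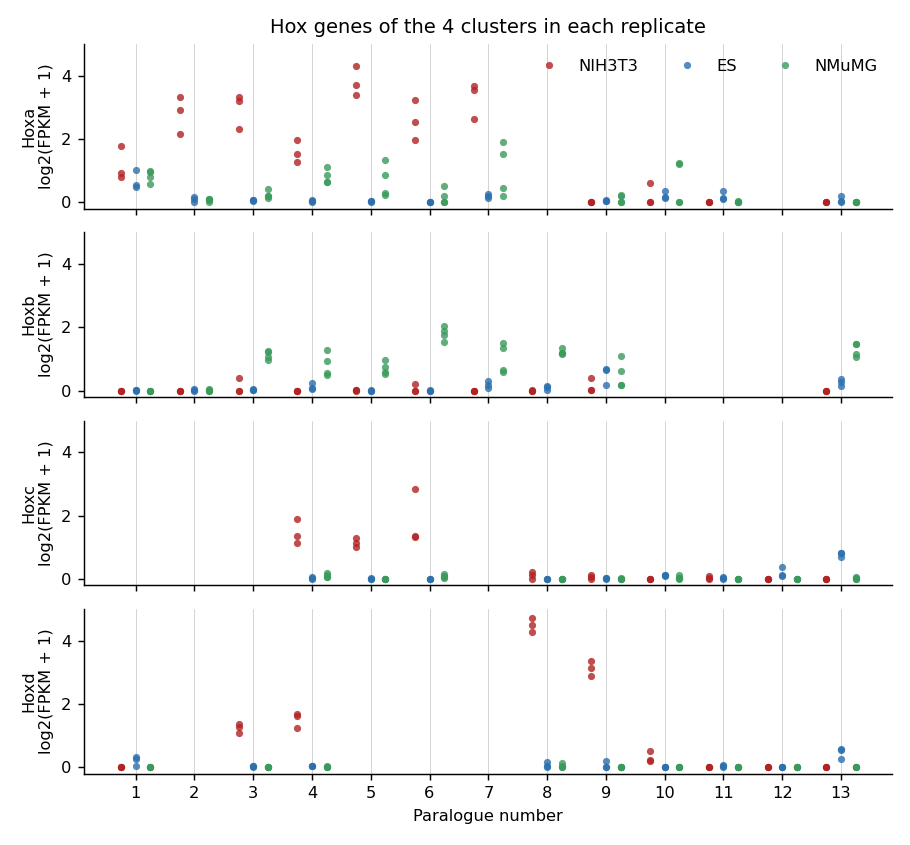
Level of each listed Hox gene as log2(FPKM + 1) by paralogue number in the Hoxa, Hoxb, Hoxc and Hoxd clusters, 1 point per replicate (3 NIH3T3, 3 ES, 4 NMuMG). All 3 NIH3T3 points stand above 1 at Hoxa2 to Hoxa7, Hoxc4 to Hoxc6, Hoxd3, Hoxd4, Hoxd8 and Hoxd9, and NMuMG points pass 1 at Hoxa4, Hoxa5, Hoxa7, Hoxa10 and at several Hoxb genes.

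On the cell surface, 17 of 23 tested genes of 25 fibroblast receptors and antigens were above both lines and none below, 11 of the 17 tested through NIH3T3 alone. Pdgfra, the receptor that marks most fibroblasts, was at 74.5, 68.1 and 191 FPKM against 1.83 or less elsewhere. Cd248, endosialin of stromal cells, was at 105, 81.5 and 162 FPKM against 0.220 or less. Axl, a receptor tyrosine kinase, was at 204, 217 and 163 FPKM in NIH3T3 and at 28.0, 0.488, 27.4 and 0.413 in NMuMG, whose reporter replicates 2 and 4 were near 0, and its contrast was 6.07 (SE 0.95). With the number series as a term Axl was not called against both. Several antigens used to sort stromal cells were as high in NMuMG: Cd44 was at 56.2, 62.1 and 32.7 FPKM against 88.6, 100, 76.2 and 124, Ly6a (Sca-1) at 146, 92.5 and 128 against 102, 137, 324 and 53.4, and Itgb1 at 170.0, 173 and 179 against 174, 143, 138 and 135, and none of the 3 was called against both. Fap, a marker of activated fibroblasts, was at 0.0246 FPKM or less in NIH3T3.

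NIH3T3 also held a set of secreted signals. Of 35 growth factors and cytokines 32 were tested, 14 were above both lines and 1 below, 10 of the 14 tested through NIH3T3 alone. Ptn, pleiotrophin, had the largest contrast of the list (7.23, SE 0.97), but its replicates were far apart, at 21.6, 149.7 and 1609 FPKM. Fgf7, a stromal signal to epithelium, was at 104, 74.5 and 143 FPKM and at 0.131 or less elsewhere, and Hgf, another such signal, was at 37.9, 26.0 and 19.8 FPKM and at 0.0526 or less. Angptl2 (60.5, 134 and 56.8 FPKM), the chemokine Ccl7 (87.5, 60.4 and 67.1 FPKM) and the macrophage growth factor Csf1 (136, 201 and 145 FPKM) were above both as well. The 1 gene below both was Pdgfb, a ligand of the PDGF receptors, at 0.0223, 0 and 0.00728 FPKM against 1.52, 2.60 and 1.31 in ES cells and 37.0, 46.5, 25.3 and 32.6 in NMuMG. Spp1, osteopontin, was the most abundant gene of the list in NIH3T3, at 1750, 1044 and 676 FPKM, and was at 3675, 1933, 1685 and 3265 in NMuMG, so it was not called against both.

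Among 30 matrix proteases and inhibitors, 23 were tested, 12 were above both lines and 1 below, 7 of the 12 tested through NIH3T3 alone. Mmp2, gelatinase A, was at 227, 172 and 291 FPKM and at 4.66 or less elsewhere. Timp3 was at 30.8, 36.9 and 101 FPKM against 0.0331 to 3.80 elsewhere, and the urokinase gene Plau at 18.8, 32.5 and 20.4 FPKM against 1.71 or less. Mmp15, a membrane metalloprotease, was below both lines at 0.0450 FPKM or less. Timp2 (301, 251 and 492 FPKM, NMuMG 277, 275, 203 and 317) did not separate NIH3T3 from NMuMG.

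Of 22 contractile and cytoskeletal genes, 21 were tested, 12 were above both lines and none below, with a median contrast of 1.96. Of the 12, 3 were tested through NIH3T3 alone. With the number series as a term 6 were above both, at a median contrast of 1.66. That median was 1.47 with replicate 1 as the only NIH3T3 library and 1.29 with parental cultures alone. Vim, the intermediate filament vimentin, was at 1604, 2361 and 2208 FPKM in NIH3T3, 52.8, 88.2 and 40.1 in ES cells and 396, 490.4, 680.5 and 720.3 in NMuMG, and the replicates did not overlap. Acta2, smooth muscle actin, was at 46.6, 516 and 517 FPKM in NIH3T3 and at 1.99 or less elsewhere, Tagln at 19, 244 and 257 FPKM, and Actg2 at 2.13, 56.5 and 49.1 FPKM. For these 3 genes replicate 1 lay below replicates 2 and 3, and still above every replicate of the other lines. Acta2 and Actg2 lost their calls with parental cultures alone, where replicate 1 is the only NIH3T3 library. Tagln was listed at 0, with an upper bound above 0, in ES replicate 2 and NMuMG replicates 2, 3 and 4, so those values are uncertain, and it lost its call without NIH3T3 replicate 3 or ES replicate 2 and with replicate 1 as the only NIH3T3 library. Both Tagln and Vim lost their calls with the number series as a term. Tpm1 and Myh9, abundant in NIH3T3 and NMuMG, were not called against both. Tpm1 was at 311, 350.2 and 335 FPKM against 672, 597, 513 and 412 in NMuMG, and Myh9 at 120.5, 198 and 160.4 against 361, 387, 216 and 267.

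Below both lines stood the epithelial program, which ES cells and NMuMG share in part. Of 41 epithelial genes, 36 were tested, 22 were below both lines and none above, with a median contrast of -2.76. Cdh1, E-cadherin (chromosome 8, 106603368 to 106670246, mm10), was at 0.0653, 0.00471 and 0.0520 FPKM in NIH3T3, 88.9, 73.5 and 74.6 in ES cells and 195, 150.3, 158 and 186 in NMuMG, a contrast of -6.82 (SE 0.12, adjusted p = 5.26e-10). Spint2, an inhibitor of epithelial serine proteases, had the lowest contrast of all genes named by rule (-8.05), at 0.170, 0 and 0.00924 FPKM against 111 to 639 elsewhere. The simple-epithelial keratins Krt8, Krt18 and Krt19 were at 0.386 FPKM or less in NIH3T3 and at 3.60 to 3089 elsewhere, with NMuMG at the upper end. Lsr, a protein of the tight junctions where 3 cells meet, was at 0.288, 0.234 and 0.181 FPKM against 14.2 to 133 elsewhere. Epcam was at 0.0107 FPKM or less, against 77.7, 69.4 and 62.8 in ES cells and 7.57, 2.10, 4.20 and 4.72 in NMuMG. Jup, a junction protein that fibroblasts also make, was lower but present, at 5.92, 9.66 and 19.2 FPKM. It was at 14.9 to 76.5 elsewhere, overlapping NIH3T3, and lost its call without NIH3T3 replicate 1 or 2 and without ES replicate 1 or 4.

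The promoters of Epcam, Lsr and Spint2 are printed because the letters CAGGTG, the E-box form to which the SNAI and ZEB factors are known to bind, recur in them. Each runs from 250 bases before to 50 after the gene start in RefSeq (GRCm38.p6), on the strand of the gene, with the E-box CAGGTG or its reverse CACCTG in capitals. Epcam lies on the plus strand at chr17:87635729-87636028, Lsr on the minus strand at chr7:30973420-30973719 and Spint2 on the minus strand at chr7:29281928-29282227.
Epcam: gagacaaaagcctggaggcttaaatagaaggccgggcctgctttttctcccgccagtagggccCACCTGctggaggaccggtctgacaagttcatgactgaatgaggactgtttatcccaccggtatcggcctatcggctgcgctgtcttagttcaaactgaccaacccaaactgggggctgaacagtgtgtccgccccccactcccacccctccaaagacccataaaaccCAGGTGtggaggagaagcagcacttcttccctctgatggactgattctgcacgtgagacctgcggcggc
Lsr: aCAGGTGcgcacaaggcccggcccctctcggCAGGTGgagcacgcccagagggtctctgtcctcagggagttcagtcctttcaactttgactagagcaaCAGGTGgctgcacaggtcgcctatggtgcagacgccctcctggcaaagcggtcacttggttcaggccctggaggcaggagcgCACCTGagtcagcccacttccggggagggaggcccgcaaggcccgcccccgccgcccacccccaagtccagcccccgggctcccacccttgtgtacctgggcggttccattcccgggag
Spint2: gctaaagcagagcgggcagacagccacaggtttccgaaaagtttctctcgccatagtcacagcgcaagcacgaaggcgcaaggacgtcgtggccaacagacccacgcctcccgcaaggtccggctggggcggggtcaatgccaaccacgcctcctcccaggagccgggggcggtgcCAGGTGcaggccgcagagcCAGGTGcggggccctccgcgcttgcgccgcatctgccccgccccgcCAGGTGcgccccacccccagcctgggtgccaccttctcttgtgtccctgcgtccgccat
Epcam held 2 matches, Lsr 4 and Spint2 3. Of the 22 epithelial genes below both lines, 14 had a promoter in the table, and 12 of these (85.7%) held the E-box in at least 1 listed promoter. The share was 42.0% of 383 genes below both lines, 17.5% of 676 above both and 20.7% of 9121 tested genes. It was 80.0% of 10 other genes of the epithelial list, not called below both or not tested, so it did not set the called members apart within the list. Of the 36 tested genes of the list 35 were lower in the contrast, so these 10 are no unchanged group. The comparison cannot show whether the motif goes with a low level in NIH3T3. The median base composition was 61.3% G and C in promoters of genes below both and 61.0% in those of tested genes. The CCAAT box was in 44.6% of genes below both and the TATA box, TATAAA or its reverse TTTATA, in 10.4% against 8.71% of tested genes. A match is not a binding site, and these motifs were chosen with the gene lists known.

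Among the other genes far below both lines, Hspb1, a small heat shock protein, was at 0.266, 0.259 and 0.0865 FPKM in NIH3T3, 303, 257 and 513 in ES cells and 55.6, 43.7, 43.5 and 66.6 in NMuMG. Chchd10, a mitochondrial protein, was at 0.166, 0.108 and 0.149 FPKM against 17.5 to 433 elsewhere. Car2, carbonic anhydrase, was at 0.0193 FPKM or less against 29.9 to 89.2. Bcam, a laminin-binding surface protein, Wfdc2, a secreted protein of epithelia, the junction protein F11r and the transcription factor Myrf were at 0.107 FPKM or less in NIH3T3 and at 7.11 to 832 elsewhere. The uncharacterised gene E130012A19Rik was at 0.562, 0.0515 and 0.00469 FPKM against 10.2 to 314 elsewhere. Rps4y2 (0.0419, 0.0545 and 0.0273 FPKM against 45.8 to 564) is a copy of a ribosomal protein gene and Mir1199 a short RNA gene listed at 0 in all 3 NIH3T3 replicates, and reads of such entries may be shared with other genes, so both values are uncertain.

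Of the cell cycle inhibitors, Cdkn2a, which encodes p16 and p19Arf (chromosome 4, 89274473 to 89294619, mm10), was listed at 0 in all 3 NIH3T3 replicates, was at 5.35, 2.12 and 3.12 FPKM in ES cells and at 35.9, 42.4, 57.2 and 92.6 in NMuMG, and was called below both. Its neighbour Cdkn2b, p15 (chromosome 4, 89306289 to 89311032, mm10), was at 0.0259, 0 and 0 FPKM against 41.3, 58.5, 57.0 and 129 in NMuMG and was low in ES cells (1.34, 0.258 and 0.601), so it was not called against both. Mtap, a nearby gene (chromosome 4, 89137370 to 89181090, mm10), was at 184, 167 and 149 FPKM in NIH3T3, 33.4, 17.8 and 20.8 in ES cells and 51.8, 53.5, 67.0 and 84.7 in NMuMG. Cdkn2c, p18, went the other way, at 42.4, 28.7 and 50.1 FPKM in NIH3T3 against 0.379, 0.459 and 0.325 and 11.7, 12.9, 13.7 and 4.30, above both lines. Cdkn1c, p57, was at 0.0118 FPKM or less in NIH3T3 and was called below both, a call lost when any 1 of the NIH3T3 replicates was left out. Mdm2, the p53 ubiquitin ligase, was also below both, at 19.8, 18.9 and 13.5 FPKM against 51.8, 45.0 and 39.5 and 55.4, 98.2, 111 and 105. Cdkn1a, p21 and a p53 target, was at 50.8, 66.7 and 25.7 FPKM, between ES cells (13.3, 23.5 and 17.4) and NMuMG (172, 282, 216 and 369.6). Trp53 (-0.56), Rb1 (-0.57), Cdkn1b (0.21) and Cdkn2d (0.67) had contrasts that were not called in both comparisons. None of 18 proliferation genes was above or below both lines, where the shares over all tested genes were 7.59% and 4.38%. Their median contrast was 0.05, from -0.345 without NIH3T3 replicate 2 to 0.342 without NIH3T3 replicate 3. NIH3T3 lay under ES cells there and overlapped NMuMG, at list means of 4.89 to 5.93 on the log2(FPKM + 1) scale, with ES cells at 6.54 to 6.74 and NMuMG at 2.32 to 5.79.

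In the BMP pathway, none of 5 tested receptors of 7 was above or below both lines. The shares over all tested genes were 7.59% above and 4.38% below, so no call among 5 does not set the receptors apart. Bmpr1a, the type I receptor with the highest level, was at 18.2, 15.4 and 21.3 FPKM in NIH3T3, with a contrast of 0.37. Acvr1 was at 11.3, 10.1 and 13.5 FPKM, as in NMuMG (11.7, 12.1, 10.6 and 15.4), and above ES cells (1.46, 2.05 and 1.71). Bmpr2 was at 10.1, 7.71 and 10.3 FPKM against 5.64, 6.60, 7.01 and 7.81 in NMuMG and 2.02, 2.57 and 1.55 in ES cells, without overlap from ES cells but with a difference from NMuMG of 0.41. Acvr2a and Acvr2b had contrasts of -0.48 and -1.31, the second one set by ES cells. Bmpr1b was listed at 0 in NIH3T3 and Acvrl1 was at 0.277 FPKM or less.

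Several secreted and membrane modulators of the pathway were above both lines. Of 17 co-receptors and antagonists 14 were tested and 7 were above both lines, 4 of them tested through NIH3T3 alone, and none below. Fstl1, a follistatin-like protein, was at 143, 154 and 364 FPKM, Tgfbr3, betaglycan, at 37.2, 20.2 and 28.1, and the co-receptors Rgma and Rgmb at 17.9, 17.1 and 24.3 and 21.0, 39.3 and 29.1 FPKM. In ES cells and NMuMG Tgfbr3 and Rgma stayed at 0.495 FPKM or less. Twsg1, which carries BMP with chordin, was high in NIH3T3 and NMuMG (46.8, 60.1 and 86.7 FPKM against 57.5, 89.8, 49.4 and 74.2 in NMuMG) and was not called against both.

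Of 18 SMAD genes and BMP targets 16 were tested and 4 were above both lines, 3 of them tested through NIH3T3 alone, and none below. Id3, an inhibitor of helix-loop-helix factors, was at 169, 197 and 206 FPKM against 41.6, 10.2 and 30.9 in ES cells and 76.0, 76.1, 60.3 and 36.4 in NMuMG. The calls of Id3 and Id4 were lost with the number series as a term. Gata2, Id4 and Smad9 were above both at lower levels, with 12.1 FPKM as the highest value of the 3 in NIH3T3. Id1, the target most used as a readout, was at 74.1, 154 and 107 FPKM and was not called (contrast 0.12), and Smad4, the SMAD shared by all branches, was at 32.8, 20.4 and 22.2 FPKM (contrast -0.14). Among 23 ligand genes of the TGF-beta family 14 were tested, 3 were above both lines and 3 below, with a median contrast of -1.78. Of the 3 above, 1 was tested through NIH3T3 alone. Tgfb3 (21.9, 21.8 and 36.5 FPKM), the activin subunit Inhba (22.5, 20.3 and 6.16) and Gdf5 (1.51, 1.11 and 1.16) were above both. Gdf15, a stress-induced ligand, Bmp4 and the activin subunit Inhbb were below both. Bmp4 was at 0.0171, 0 and 0.0223 FPKM in NIH3T3, 7.56, 21.9 and 39.0 in ES cells and 6.17, 4.85, 6.88 and 15.2 in NMuMG. Inhbb was listed at 0 in all 3 NIH3T3 replicates.

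Of 9 tested hedgehog genes of 11, Gas1 and Gli3 were above both lines, 1 of the 2 tested through NIH3T3 alone. Gli3 was at 4.82, 6.31 and 10.3 FPKM against 1.48 or less elsewhere. Smo, the signal transducer, was at 62.4, 76.9 and 70.6 FPKM and above every other replicate, with a difference of 0.81 from NMuMG that fell short of a 2-fold change. Among 20 tested genes of 30 in the Wnt list 6 were above both lines and none below, with a median contrast of 0.84. Of these 6, 3 were tested through NIH3T3 alone. The 6 were Dkk3, Ror2, Fzd2, Wnt5a, Ryk and Fzd8, where Wnt5a is the ligand of Ror2. Wnt5a was at 8.11, 3.50 and 2.47 FPKM and Ror2 at 8.36, 18.2 and 13.4 FPKM. Of 12 YAP and TEAD targets 1 was above both lines (Axl, tested through NIH3T3 alone) and 1 below (Ajuba). Ajuba was at 15.0, 14.9 and 16.5 FPKM against 40.4 to 72.8 elsewhere. Over all tested genes 7.59% were above both and 4.38% below both, so 1 gene of 12 each way does not set the list apart. The targets Cyr61 and Amotl2, at 204, 52.3 and 39.0 and 53.5, 39.1 and 57.8 FPKM, were not called against both.

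Of 19 tested imprinted genes of 25, Dlk1, Ndn and Peg12 were above both lines and Phlda2, Slc22a18 and Cdkn1c below both, with a median contrast of 1.01. Of the 3 above, 2 were tested through NIH3T3 alone. Ndn, necdin, was at 26.3, 29.9 and 41.5 FPKM against 6.57 or less elsewhere. Phlda2, Slc22a18 and Cdkn1c lie in 1 imprinted cluster of chromosome 7, and stayed at 0.0473 FPKM or less in NIH3T3. In the ES cells Phlda2 was at 96.9, 77.7 and 68.2 FPKM, and in NMuMG Slc22a18 was at 24.4, 26.6, 15.2 and 37.6 FPKM. Grb10 and Igf2r, both imprinted growth regulators, were at 104, 114 and 100 and 19.7, 40.3 and 49.9 FPKM and were not called against both. Among 20 pluripotency genes, all of them tested, 2 were below both lines: Tfcp2l1, which NMuMG also expressed, at 0.0269, 0.00546 and 0.0230 FPKM against 3.96 to 46.3 elsewhere, and Klf4, at 19, 10.2 and 15.3 FPKM against 27.4 to 151. Klf4 lost its call without NIH3T3 replicate 2 or 3, without ES replicate 4 and without NMuMG replicate 2, 3 or 4, and with the number series as a term both genes lost theirs. The median contrast of this list was -3.39, set by ES cells. Outside these programs, the lipase gene Lpl was above both lines at 10.4, 6.87 and 17.4 FPKM. It was 1 of 3 tested genes of 9 adipocyte markers and was tested through NIH3T3 alone. Alkaline phosphatase, Alpl, was below both at 0, 0.00860 and 0 FPKM against 1.41 to 40.4 elsewhere. It was 1 of 2 tested genes of 11 bone and cartilage markers. No gene was called above or below both among 4 tested endothelial, 1 blood, 2 skeletal muscle and 4 neural markers. At the shares over all tested genes, 7.59% above and 4.38% below, such short lists would hold few calls or none.

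The 3 NIH3T3 replicates differed among themselves in a few programs. Of the 12348 tested genes, 378 (3.06%) ranged over 4-fold or more among NIH3T3 replicates on the log2(FPKM + 1) scale, against 194 (1.57%) among the 3 ES and 528 (4.28%) among the 4 NMuMG replicates. A range grows with the number of replicates, and 1 ES replicate is a mean of 2 technical runs, so these shares are not alike. The median SD of a gene was 0.283 in NIH3T3, 0.227 in ES cells and 0.202 in NMuMG. Replicate 3 was highest for the matrix. The summed FPKM of 13 small leucine-rich proteoglycans was 1109, 1169 and 2897 in replicates 1, 2 and 3, and that of 30 other matrix genes was 2151, 3357 and 5560. Postn, periostin of remodelling tissue, was at 1.06, 54.3 and 689 FPKM in replicates 1, 2 and 3, and at 0.0110 or less in other lines. The same replicate was lowest for the proliferation genes, whose sum was 872, 1508 and 603 FPKM. Replicate 1, matched to the parental sample, was lowest for Acta2, Tagln and Actg2. It was highest for the genes of MHC class I and interferon, whose sum was 4432, 1547 and 2117 FPKM. B2m, the light chain of MHC class I, was at 959, 420.2 and 681 FPKM and 324, 280.1, 991 and 265 in NMuMG, and Ifitm3, an antiviral membrane protein, at 1385, 316 and 329 FPKM. Of 17 tested genes of that list of 21 only the peptide transporter Tap2 was above both lines, where the share over all tested genes was 7.59%. Tap2 was at 35.2, 16.1 and 36.8 FPKM, with NMuMG at 9.56, 7.68, 23.0 and 8.06. Without NMuMG replicate 3 the count was 5, and it was 0 without NIH3T3 replicate 1 or 3 and without NMuMG replicate 1, 2 or 4. The part of reporter and number series in these differences was not tested.

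**Figure D5:**
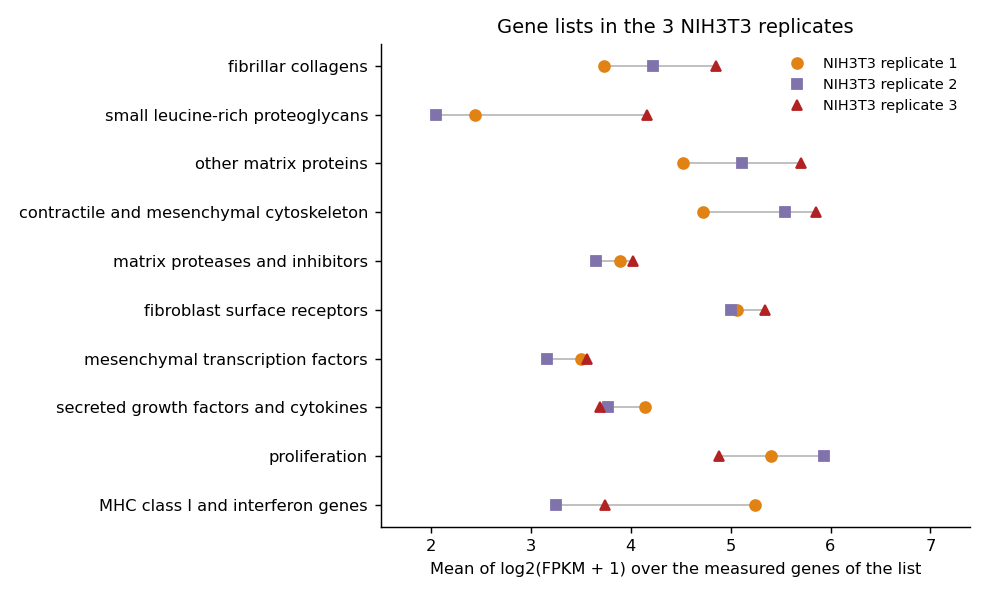
Mean level of 10 gene lists in the 3 NIH3T3 replicates, as the mean of log2(FPKM + 1) over the measured genes of each list, 1 marker per replicate with a line over their range. The matrix lists are highest in replicate 3, the proliferation list is lowest there at 4.89, and the MHC and interferon list is highest in replicate 1 at 5.25.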

How the data were processed

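Total RNA of the 3 lines was extracted with RNeasy, made into libraries with NEBNext Ultra and sequenced on a HiSeq2500, per the labels' protocols. FPKM values were computed by the authors, and bcl2fastq 1.8.4, TopHat and Cufflinks and the mm10 build are named in the submitters' processing notes, with no versions of the last 2 tools. Counting on strand is not given in the sources used here, so antisense pairs cannot be told apart. Of 23849 entries per table, those of 1 symbol were summed (260 symbols on more than 1 entry), which left 23353 symbols. Fn1, Rn45s and Tpm3 were left out because their estimate failed in a library, and 2 symbols were dropped because their loci were swapped in 1 table. In all 1386 entries were at 0 in some library with an upper bound above 0, and where named such values are called uncertain.

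The mean of both technical runs stood for 1 ES reporter replicate. Genes reaching 1 FPKM in 3 or more of 10 replicates were tested with limma 3.58.1 (R 4.3.3) on log2(FPKM + 1), two-sided, with an intensity trend and Benjamini-Hochberg adjustment over 12348 genes. Fold changes on that scale understate the change of low genes. On simulated data for this comparison, run on 12348 genes, 83 of 100 genes changed by 1.5 (log2) and 96 of 100 changed by 3 were recovered, with 1 false call. Changes were added only to genes with a high mean level, and apart from them all 3 simulated lines shared the same mean for each gene. Low genes and differences between ES cells and NMuMG were thus not in the simulation. These rates are therefore no measure for genes close to absent on one side, or for genes that differ widely between the other lines. Alternatives covered the pseudocount, filter, scaling, variance trend, technical runs, replicates, number series of the table names, reporter and table entries. Promoters come from RefSeq, and 3 motifs were searched on both strands. Python 3.11.15, pandas 2.3.3, NumPy 2.4.6 and matplotlib 3.10.9 were used.

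The comparison, the gene lists and the tests were chosen with earlier results of these data known. Named genes are the 4 markers, every BMP receptor and every cell cycle inhibitor. Clean entries above or below both lines without overlap gave the 15 highest and 15 lowest contrasts. Each list gave up to 5 called genes a direction and 2 abundant others. Epcam and Pou5f1 were set as markers of epithelium and ES cells. Col2a1, Emcn, Emr1, Kdr and Myod1, list members under the filter, fall outside these rules and were chosen after their values were seen. The other named genes were chosen after their values were seen: Aspn, Bst2, Cd44, Fap, Fzd8, Hgf, Hoxa10, Hoxa13, Hoxa6, Hoxa7, Hoxa9, Hoxb1, Hoxb13, Hoxb2, Hoxb4, Hoxb5, Hoxb6, Hoxb7, Hoxb8, Hoxb9, Hoxc13, Hoxc4, Hoxc5, Hoxc6, Hoxd10, Hoxd11, Hoxd12, Hoxd3, Hoxd4, Ifit1, Igf2r, Isg15, Jup, Lsr, Mtap, Nr2f1, P4ha1, Pcolce, Pitx1, Postn, Ppib, Rgmb, Scx, Smad4, Snai1, Snai2, Tcf21, Vim, Zeb1 and Zeb2.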

Additional observations from a re-analysis of the deposited data

Results flagged for a closer look

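Of 172 named and tested genes, 14 had 1 NMuMG replicate far from the other 3, by the gap to its nearest neighbour as a share of the range of the group. Chance flags about 1 in 20 groups, and the groups of 3 in NIH3T3 and ES cells are too small for this check. NMuMG replicate 3 stood apart for B2m at 990.7 FPKM, Bst2 at 834, Isg15 at 258 and Trp53 at 142. Replicate 4 stood apart for Runx2 at 7.02 FPKM, Cdkn2c at 4.30, Efemp1 at 0.389, Thbs2 at 0.0621, Osr1 at 0.0164 and Lpl at 0.0154. Replicate 1 stood apart for Tagln at 9.06 FPKM, Acta2 at 1.99, Prelp at 0.215 and Dkk3 at 0.0258. For Efemp1, Thbs2, Osr1, Lpl, Prelp and Dkk3 all NMuMG values were below 1 FPKM, far under those of NIH3T3.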

How the results depend on the processing

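Of 128 named genes called above or below both lines, 64 kept their call under every alternative in which they were tested, and none changed direction. Not every gene was tested in each: the filter at 5 FPKM kept 143 of the 172 named genes. The number of genes above both lines lay between 678 and 969, and that below both between 392 and 548, under another filter, scaling, trend, choice of entries, technical run or with the number series as a term. At a pseudocount of 0.1, 981 were above and 929 below both, all 541 among the latter. Leaving out 1 replicate at a time gave 886 to 965 above both, 501 to 604 below both, 1708 to 1847 higher and 1708 to 1951 lower in the contrast. With the number series that holds all 3 lines alone 409 were above and 65 below both, 699 higher and 646 lower. With parental cultures alone, 1 of them in NIH3T3 and 1 in ES cells, 426 were above and 107 below, 752 higher and 765 lower. Fewer samples enter both fits, and their lone samples are assumed to vary like NMuMG. NIH3T3 replicates 2 and 3 were left out of the parental fit, although their table names carry no reporter tag.

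Contrasts that changed sign belonged to genes not called above or below both. Leaving out 1 replicate moved Cdkn1b between -0.10 (without NIH3T3 replicate 3) and 0.63, Bst2 between -0.94 (without NIH3T3 replicate 1) and 1.26, and Id1 between -0.14 (without NIH3T3 replicate 2) and 0.38. Id1 was at -0.68 with the number series as a term, -0.69 in the series with all lines, -0.48 in parental cultures and -0.40 with NIH3T3 replicate 1 alone. P4hb was at -0.011, -0.041 and -0.057 with the number series as a term, in the series with all lines and in parental cultures, and Smad4 at 0.20, 0.17, 0.39 and 0.26 in these 3 and with NIH3T3 replicate 1 alone. The cause was not tested. No paired analysis was possible because 2 NIH3T3 tables carry numbers that the labels do not give to any sample. The number series as a term is given in its place, with the NIH3T3 level set by replicate 1 alone. The tables hold no counts, so no counting error could be given, and NIH3T3 replicates 2 and 3, the deepest libraries, form a number series without another line.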

Other observations

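Genes of the interferon response were high in 2 parental libraries of the same number series, NIH3T3 replicate 1 and NMuMG replicate 3, and not in the other libraries of that series. Isg15, a ubiquitin-like protein induced by interferon, was at 164, 7.98 and 22.4 FPKM in NIH3T3 replicates 1, 2 and 3, at 0.207, 0 and 0.178 in the ES replicates and at 1.55, 0.592, 258 and 0.709 in NMuMG replicates 1 to 4. Ifit1, which binds viral RNA, was at 24.7, 0.339 and 0.209 FPKM in NIH3T3, 0, 0 and 0.0133 in ES cells and 0.759, 0.119, 66.2 and 0.219 in NMuMG. Bst2, tetherin, was at 771, 35.3 and 51.7 FPKM in NIH3T3, 83.6, 106 and 66.7 in ES cells and 38.4, 36.4, 834 and 38.4 in NMuMG. The summed level of the 21 genes of MHC class I and interferon was 917, 831, 3674 and 877 FPKM in the NMuMG replicates, against 4432, 1547 and 2117 in NIH3T3.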
